A study of Mus musculus with 8 samples.

Results

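Basal progenitors of the mouse embryonic cortex, which divide away from the ventricle and produce neurons, were profiled at days 13 (E13) and 16 (E16) of gestation, and 3 of their miRNAs are described here, mmu-miR-99a, mmu-miR-100 and mmu-miR-125b-5p (written below without the species prefix). The 3 were chosen by name, as the mouse probes of an Agilent miRNA array that carry one of these 3 names, and they account for 3 of 611 mouse miRNAs and 6 of 1759 mouse probes. The cells were isolated by fluorescence-activated cell sorting, and their total RNA was labelled with Cy3. Each stage had 4 samples marked WT, with 1 one-colour array per sample. No treatment is named, and the sorting marker, strain and sex are not given in the sources used here. Per the design text the 4 samples of a stage came from 3 litters, so unless litters were pooled at least 2 samples of a stage share a litter. The labels do not say which, and the SDs and tests below treat the 4 as independent. In such bulk RNA, fewer cells holding a miRNA and less of it per cell cannot be told apart.

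MicroRNAs are short RNAs that pair with messenger RNAs, mainly through the seed near their 5′ end, and lower the output of those messages. Genes for miR-99 and miR-100, for let-7 and for miR-125 lie together in related clusters. let-7 and miR-125 are the counterparts of the developmental timing genes let-7 and lin-4 of the nematode. In the nervous system let-7 and miR-125 are known to accumulate as progenitors mature and to restrain the progenitor gene Lin28.

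The mature sequences show why the 3 miRNAs fall into separate seed groups, and why miR-99a and miR-100 have to be read together. The seed, bases 2 to 8, is in capitals, and all sequences are from RefSeq, with the annotation of GRCm38.p6, which gave a mature sequence for 503 of the 611 array miRNAs.
miR-99a: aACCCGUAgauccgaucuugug
miR-100: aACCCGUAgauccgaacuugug
miR-99b: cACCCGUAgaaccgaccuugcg
miR-125b-5p: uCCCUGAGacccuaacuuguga
miR-125a-5p: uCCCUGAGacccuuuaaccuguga
miR-351: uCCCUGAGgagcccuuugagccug
These 6 were the array miRNAs found with either seed. Counted from 1 at the 5′ end, miR-99a and miR-100 differ by the single substitution U16A (miR-99a first, then miR-100). miR-99b differs from miR-99a by A1C, U11A, U16C and U21C. miR-125b-5p and miR-125a-5p are identical over their first 13 bases and are 22 and 24 bases long. miR-351, the remaining carrier of the miR-125 seed, was well above background on 0 of 8 arrays.

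The array read each miRNA with a longer and a shorter probe, both complementary to its 3′ part, and the longer ones show how little separates the miR-99a signal from the miR-100 signal.
miR-99a probe: cacaagatcggatctacgg
miR-100 probe: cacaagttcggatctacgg
miR-125b-5p probe: tcacaagttagggtctc
The longer probes of miR-99a and miR-100 have 19 bases and pair with bases 4 to 22 of the mature miRNA, so their only difference is the base opposite position 16. The longer probe of miR-125b-5p has 17 bases and pairs with bases 6 to 22. Whether a probe also takes signal from the near-identical miRNA was not tested.

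In mm9, the build of the files, the probe match of miR-100 is on chromosome 9, bases 41339524 to 41339541, and a let-7a match starts 5.293 kb from it. That of miR-99a is on chromosome 16, bases 77599189 to 77599206, and a let-7c match starts 0.731 kb from it. miR-125b-5p matches both places, on chromosome 9 at 41390028 to 41390044, which is 50.504 kb from miR-100, and on chromosome 16 at 77646529 to 77646545, which is 47.34 kb from miR-99a. By RefSeq gene order, Mir100, Mirlet7a-2 and Mir125b-1 overlap the non-coding host gene Mir100hg, whereas Mir99a follows Mir99ahg and precedes Mirlet7c-1 and then Mir125b-2. The hairpins below, with the mature arm in capitals, give the precursors from which these arms are cut.
Mir99a: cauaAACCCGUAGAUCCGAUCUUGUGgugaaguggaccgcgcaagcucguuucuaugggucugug
Mir100: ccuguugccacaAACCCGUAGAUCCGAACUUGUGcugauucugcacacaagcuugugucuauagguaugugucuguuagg
Mir125b-1: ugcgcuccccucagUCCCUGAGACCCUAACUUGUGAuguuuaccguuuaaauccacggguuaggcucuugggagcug
Mir125b-2 yields the same mature miR-125b-5p, so its signal is the sum of both loci. The arms that would tell the loci apart, miR-125b-1-3p and miR-125b-2-3p, were each well above background on 0 of 8 arrays. No probe was matched to miR-99a-3p or miR-100-3p.

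The arrays differed in overall brightness. Over the 126 mouse probes that exceeded background clearly on each of the 8 arrays, the 75th percentile of the processed signal ran from 162 to 490 on the E13 arrays and from 109 to 748 on the E16 arrays. The number of miRNAs well above background ran from 117 to 205 per E13 array and from 76 to 168 per E16 array, the lowest being E16 replicate 4. Each array was therefore divided by its percentile, and values are given as log2 of that ratio. The neural markers miR-9, miR-9* and miR-124 were well above background on all 8 arrays, and 0 of 17 markers of blood, endothelium, muscle and mesenchyme, or hindbrain and spinal cord were so on any array. None of these markers separates basal progenitors from other neural cells. Slide row 2 held the E13 arrays and row 1 the E16 arrays, and row and stage cannot be told apart.

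miR-99a, miR-100 and miR-125b-5p were all higher at E16. Their longer probes were well above background on 8 of 8 arrays. All 3 passed the test as higher, as did 11 of 153 tested miRNAs (7.19%), while 40 (26.1%) were lower and 51 (33.3%) changed in either direction. All 3 also had every E16 array above every E13 array, as did 12 of the 153 (7.84%), while 47 (30.7%) had every E16 array below. The 3 were named with earlier results of these data known, so these shares describe them and are not independent support.

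miR-99a, one of the miR-99 seed group, had scaled log2 signals of -0.02, 0.02, 0.09 and 0.0039 on E13 replicates 1 to 4. On E16 replicates 1 to 4 the values were 1.59, 1.66, 1.76 and 1.19. The E13 arrays lay close together and E16 replicate 4 was the lowest of its stage, yet 1.10 above the highest E13 array. The means were 0.02 ± 0.05 (SD, n = 4) and 1.55 ± 0.25 (SD, n = 4), a 2.88-fold rise (95% interval 2.23 to 3.72). The log2 difference of 1.53 (SE 0.16) passed limma's test with an adjusted p of 7.9e-05.

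miR-100, which shares its seed and all but 1 base with miR-99a, had scaled log2 signals of -3.02, -2.57, -2.65 and -2.89 on E13 replicates 1 to 4. At E16 they were -1.05, -0.85, -0.92 and -1.32. E16 replicate 4 was again the lowest of its stage, and a gap of 1.25 separated the stages. The means were -2.78 ± 0.21 (SD, n = 4) and -1.04 ± 0.21 (SD, n = 4), a 3.36-fold rise (95% interval 2.56 to 4.41). The log2 difference was 1.75 (SE 0.17, limma adjusted p = 6.2e-05), the 3rd largest rise among the 153 tested miRNAs. With normexp background correction it was 0.99, still past the threshold. That correction used an offset of 50, beside unscaled miR-100 signals of 20.1 to 78.1 at E13. The part of the offset in the smaller difference was not tested.

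miR-125b-5p, of the miR-125 seed group, had scaled log2 signals of 3.26, 3.5, 3.17 and 3.05 on E13 replicates 1 to 4. At E16 they were 4.12, 4.41, 4.13 and 4.49. Here E16 replicate 4 was the highest array, unlike for miR-99a and miR-100, and the stages were 0.63 apart. The means were 3.25 ± 0.19 (SD, n = 4) and 4.29 ± 0.19 (SD, n = 4), a 2.06-fold rise (95% interval 1.59 to 2.66). The log2 difference was 1.04 (SE 0.17, limma adjusted p = 0.0011). It was 0.43 (SE 0.17) with quantile normalization (limma adjusted p = 0.079) and 0.76 (SE 0.30) in the deposited value table (limma adjusted p = 0.092), and passed in neither.

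**Figure D1:**
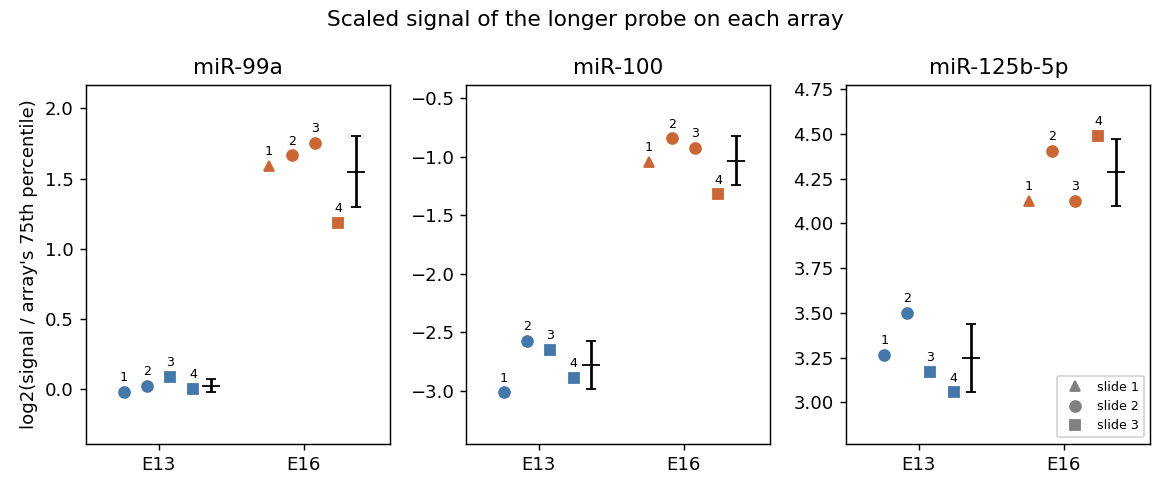
Scaled log2 signal of the longer probe (vertical axis) on each E13 (blue) and E16 (orange) array, numbered by replicate and shaped by slide, with the mean and SD of each stage. In each panel the E16 arrays lie above the E13 arrays, with a gap of 1.10 for miR-99a, 1.25 for miR-100 and 0.63 for miR-125b-5p.

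The scaling set the zero of these differences. Across the 153 tested miRNAs the log2 differences had a median of -0.40, and relative to it miR-99a, miR-100 and miR-125b-5p were 1.92, 2.15 and 1.44 higher. With all mouse probes entering the percentile, the median of all tested was 0.42, with 47 higher and 16 lower. The differences of the 3 miRNAs then came to 2.35, 2.57 and 1.86, which relative to that median were 1.93, 2.15 and 1.44. Another percentile shifts all miRNAs of an array alike, so these relative values could hardly move. With the filter on all 8 arrays the median was -0.15, and the 3 were 1.68, 1.90 and 1.19 above it. Quantile normalization gave a median of -0.09, and 20 miRNAs were then higher and 27 lower. Relative to that median miR-99a, miR-100 and miR-125b-5p were 1.57, 2.04 and 0.52 higher, and miR-125b-5p ranked 35 of 153 by its rise. Without E16 replicate 4, 17 miRNAs were higher, and miR-99a, miR-100 and miR-125b-5p were all still among them.

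**Figure D2:**
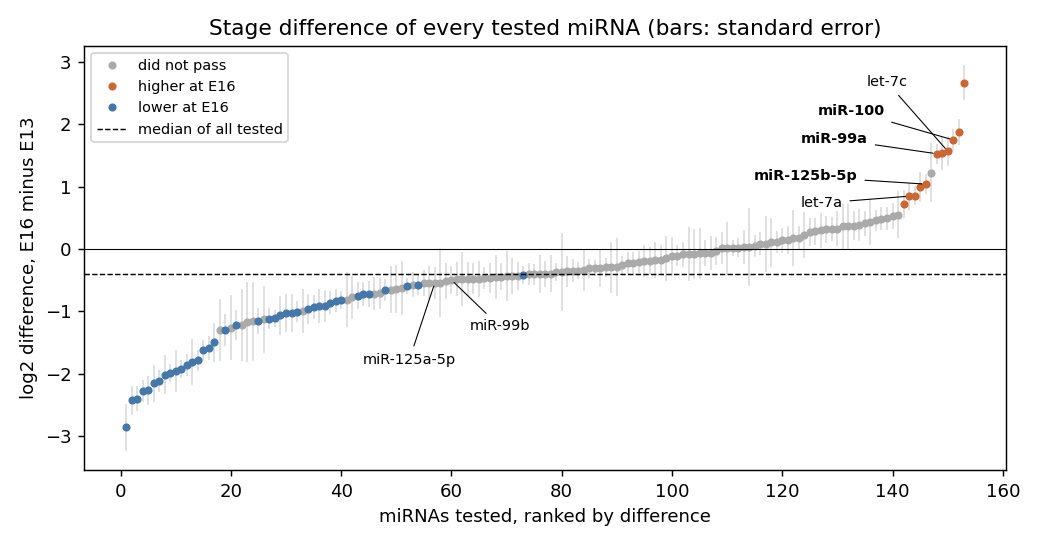
Log2 difference, E16 minus E13 (vertical axis, with standard error), of the 153 tested miRNAs in rank order (horizontal axis), colored by whether limma's adjusted p was under 0.05. miR-100, miR-99a and miR-125b-5p lie among the 11 higher miRNAs, while their relatives miR-99b and miR-125a-5p lie near the dashed median of -0.40.

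The unscaled signals show what the scaling did. The processed signal of the longer miR-99a probe was 160, 322, 522 and 295 on E13 replicates 1 to 4 and 1836, 2371, 952 and 247 on E16 replicates 1 to 4. That of miR-100 was 20.1, 53.2, 78.1 and 39.5 at E13 and 294, 416, 148 and 43.4 at E16. That of miR-125b-5p was 1559, 3579, 4417 and 2441 at E13 and 10615, 15846, 4922 and 2438 at E16. For each of the 3, E16 replicates 1 to 3 were above every E13 array without scaling, and E16 replicate 4, the dimmest array, lay within the E13 range. Its place above the E13 arrays thus rests on the scaling. Spots of 1 probe on 1 array varied little, with a median coefficient of variation of 7.28% for miR-99a, 11.1% for miR-100 and 7.84% for miR-125b-5p over 7 to 10 spots.

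The shorter probes gave a second reading of the same arrays. In a fit over all probes, the shorter probe of miR-99a had a log2 difference of 1.39 (SE 0.17) and that of miR-100 of 1.70 (SE 0.19), and both passed. On E13 replicate 1 the shorter miR-100 probe had 0 of 10 spots well above background, at a signal of 5.99, so its value there is only a bound. The shorter probe of miR-125b-5p had a log2 difference of 0.81 (SE 0.30, limma adjusted p = 0.073) and did not pass. Its signal ran 161, 360, 491 and 269 on the E13 arrays and 560, 1748, 507 and 272 on the E16 arrays.

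That weaker reading came with 1 array. The log2 ratio of the shorter to the longer miR-125b-5p probe was -3.28, -3.31, -3.17 and -3.18 on the E13 arrays and -4.24, -3.18, -3.28 and -3.16 on the E16 arrays. E16 replicate 1 stood apart, and was the only array of slide 1. The 2 probes of miR-125a-5p behaved alike, with a ratio of -3.21 on that array and -2.40 to -2.10 on the others. For miR-99a (-2.34 to -2.01) and miR-100 (-1.82 to -1.55) the same array had the lowest ratio, but close to the rest. For miR-99b, which enters the within-array changes below through its longer probe, the ratio was -1.65 on that array and -1.39 to -1.30 on the others. The part of that slide in the ratio was not tested.

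**Figure D3:**
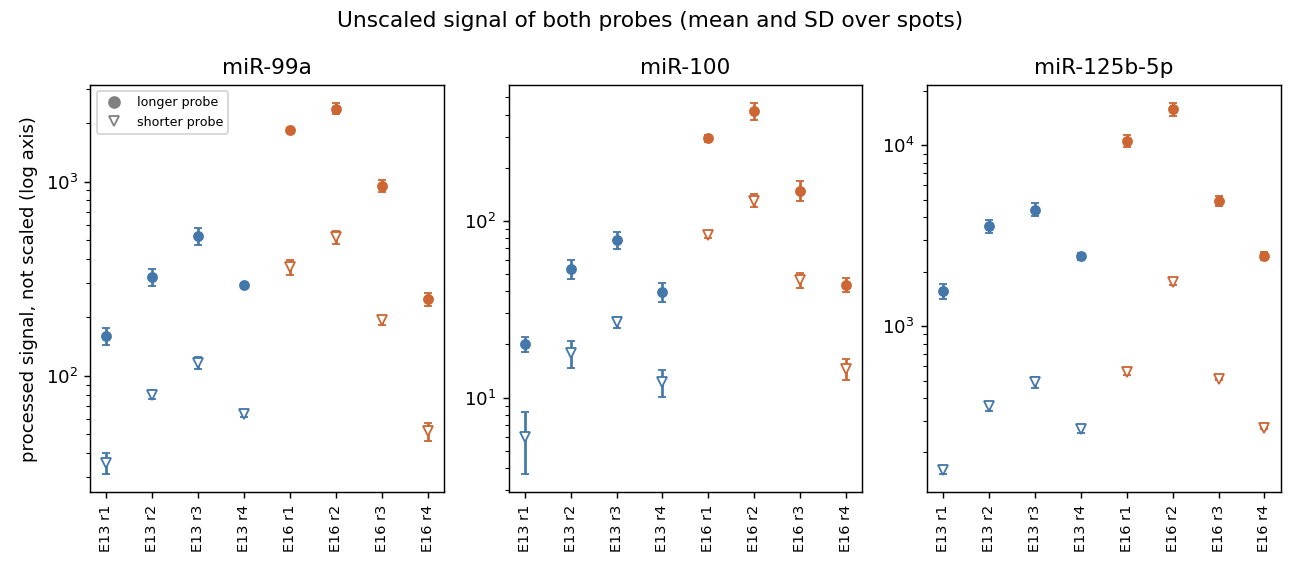
Processed signal before scaling (vertical log axis) of the longer (filled) and shorter (open) probe on each array, E13 in blue and E16 in orange, with SD over spots. E16 replicate 4 lies within the E13 range for all 3 miRNAs, and the shorter miR-125b-5p probe is dim relative to the longer one on E16 replicate 1.

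The seed relatives from another cluster did not pass as higher. miR-99b and miR-125a-5p are encoded on chromosome 17 together with let-7e, which carries neither seed. Of these 3, 0 were higher and 0 lower, beside 7.19% higher and 26.1% lower among all tested. The log2 difference of miR-99b was -0.50 (SE 0.22, limma adjusted p = 0.11) and that of miR-125a-5p was -0.54 (SE 0.26, limma adjusted p = 0.14). With the percentile over all mouse probes they turned to 0.32 and 0.28, and neither passed. Within slide 2 they were -0.81 and -0.88, beside a median of -0.28 for all tested. Within slide 3, with a single E16 array, they were 0.07 and 0.29, beside a median of -0.74. Without E16 replicate 4, miR-125a-5p was lower, at -0.74 (limma adjusted p = 0.025), as were 54 of the 153 tested.

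A difference between 2 miRNAs on the same array does not depend on the single factor by which that array was divided, although it can move under quantile normalization. Here 6 such differences were compared between stages. Each used a two-sided exact permutation test over 70 assignments, for which 0.029 is the smallest p possible, with adjustment over the 6. Only the change between stages is read, since signals of different probes are not comparable.

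miR-99a minus miR-99b was 1.45, 1.15, 1.78 and 1.98 on E13 replicates 1 to 4 and 3.86, 3.56, 4.08 and 2.95 on E16 replicates 1 to 4. The stages did not overlap, and E16 replicate 4 was the lowest of its stage. The change was 2.02 (95% interval 0.97 to 2.92), or 4.06-fold (exact permutation p = 0.029, adjusted p = 0.043). It was 2.52 within slide 2, with 2 arrays a stage, and 1.07 within slide 3, where E16 replicate 4 was the single E16 array.

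miR-100 minus miR-99b was -1.54, -1.44, -0.96 and -0.92 at E13 and 1.22, 1.05, 1.40 and 0.44 at E16, again without overlap. The change was 2.24 (95% interval 1.365 to 2.94), or 4.74-fold (exact permutation p = 0.029, adjusted p = 0.043). It was 2.72 within slide 2 and 1.38 within slide 3. These 2 changes share miR-99b and are not independent of each other.

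miR-125b-5p minus miR-125a-5p was 2.23, 2.13, 2.40 and 2.42 at E13 and 4.12, 3.87, 4.02 and 3.49 at E16. The E13 arrays lay within a narrow range, and all E16 arrays were above them. The change was 1.58 (95% interval 1.07 to 1.99), or 2.99-fold (exact permutation p = 0.029, adjusted p = 0.043), with 1.08 within slide 3 and 1.16 with quantile normalization. With normexp correction the 3 changes against seed relatives were 1.71, 1.34 and 1.51, in the order given, each with an adjusted p of 0.057 in the same exact permutation test.

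The near-identical pair did not separate as read by the longer probes. miR-100 minus miR-99a was -3.00, -2.60, -2.74 and -2.90 at E13 and -2.64, -2.51, -2.68 and -2.51 at E16, and the stages overlapped. The change was 0.22 (95% interval -0.08 to 0.48, exact permutation p = 0.086, adjusted p = 0.10), which leaves room for a rise of miR-100 relative to miR-99a. The change was -0.37 with normexp correction and 0.47 with quantile normalization, and neither passed. The normexp offset of 50 is large beside the miR-100 signals at E13, and its part in the -0.37 was not tested. It was 0.32 with the dimmest probe and 0.27 with the mean of all probes, and both passed (exact permutation adjusted p = 0.034). Both use the shorter miR-100 probe, whose value on E13 replicate 1 (-4.76), its lowest at E13, is only a bound. A true value below that bound would make both changes larger, so these sizes are not exact.

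miR-99a and miR-100 were also set against their let-7 neighbours. let-7a and let-7c share the seed of the let-7 family and differ from each other by A19G (let-7a first), so their probes may share signal, which was not tested.
let-7a: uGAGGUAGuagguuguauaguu
let-7c: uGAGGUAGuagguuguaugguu
Both also match a further place in mm9, let-7a on chromosome 13 and let-7c on chromosome 15, so their signals are not those of the clusters alone. miR-99a minus let-7c was -0.61, -1.57, -0.83 and -0.70 at E13 and -1.11, -0.80, -0.43 and -1.55 at E16. The stages overlapped throughout, with a change of -0.04 (95% interval -0.93 to 1.14, exact permutation p = 0.91), an interval wide enough to hold a change of either sign. Its sign varied, with 0.48 within slide 2, -0.79 within slide 3 and 0.30 with quantile normalization.

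miR-100 minus let-7a was -3.48, -3.80, -3.40 and -3.31 at E13 and -2.88, -2.38, -2.21 and -2.89 at E16, without overlap. The change was 0.90 (95% interval 0.42 to 1.58), or 1.87-fold (exact permutation p = 0.029, adjusted p = 0.043). It was 1.34 within slide 2, 0.46 within slide 3 and 0.23 with normexp correction, where it did not pass. Whether the change against let-7a differs from that of miR-99a against let-7c was not tested.

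**Figure D4:**
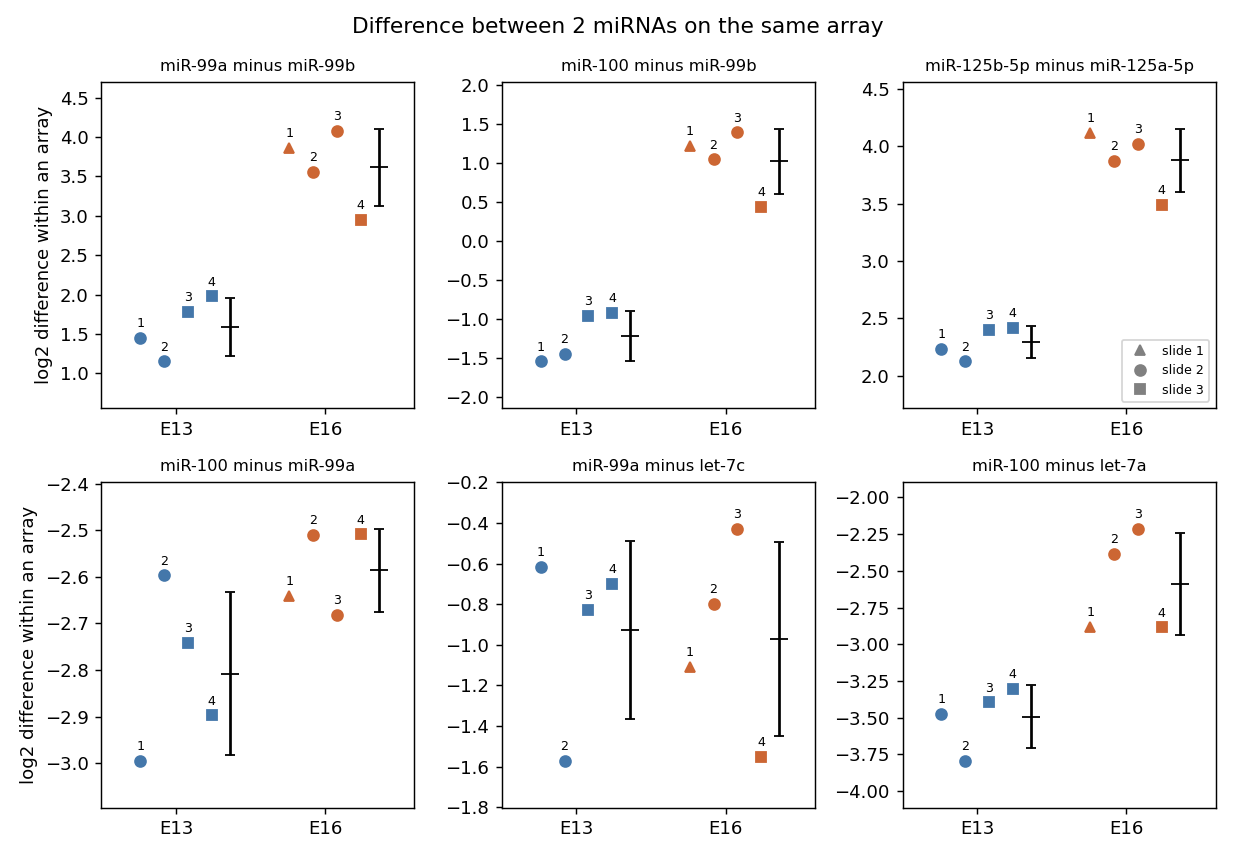
Log2 difference between 2 miRNAs on the same array (vertical axis), E13 in blue and E16 in orange, numbered by replicate and shaped by slide, with mean and SD. The stages separate in the 3 differences against miR-99b or miR-125a-5p and in miR-100 minus let-7a, and overlap in miR-100 minus miR-99a and miR-99a minus let-7c.

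Of the 9 let-7 family members tested, 4 were higher and 0 lower, with a median log2 difference of 0.49 beside -0.40 for all tested. Among all tested miRNAs, 7.19% were higher. With all mouse probes in the percentile, 8 let-7 members were higher, beside 30.7% of all tested, and without E16 replicate 4 there were 5, beside 11.1%. let-7c, the neighbour of miR-99a, was at 1.57 and let-7a, the neighbour of miR-100, at 0.85, and both rose. let-7b (2.66) and let-7f (0.72) also rose. let-7d was at 0.49, let-7i at 0.46, miR-98 at 0.41, let-7g at 0.14 and let-7e at -0.35, and these did not pass.

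The tested miRNAs whose values ran most like those of each member were taken by Pearson's r over the 8 arrays, which share their scaling factors and the stage difference. For miR-99a they were miR-100 (0.99), miR-497 (0.99), miR-195 (0.97), miR-181a (0.92) and let-7b (0.92). For miR-100 they were miR-99a (0.99), miR-497 (0.98), let-7b (0.95), miR-195 (0.95) and miR-125b-5p (0.94). miR-497 and miR-195 were well above background on 1 E13 array and 3 E16 arrays, so their values on the other arrays are less certain. For miR-125b-5p they were let-7b (0.96), let-7c (0.96), miR-100 (0.94), miR-99a (0.90) and miR-181a (0.90).

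With each stage's mean subtracted, the order changed. miR-99a and miR-100 still ran together (r = 0.75 over 8 arrays), whereas miR-125b-5p gave -0.50 with miR-99a and 0.04 with miR-100. The nearest to miR-125b-5p were then miR-99b (0.98), miR-92a (0.98), miR-125a-5p (0.96), miR-129-3p (0.88) and miR-423-5p (0.88). For miR-99a they were miR-335-5p (0.93), miR-195 (0.92), miR-449a (0.89), miR-7a* (0.89) and miR-93 (0.88). For miR-100 they were miR-103 (0.91), miR-99a (0.75), miR-361 (0.72), miR-93 (0.72) and let-7g (0.71). Like miR-195, miR-7a* was well above background on only 1 E13 array and 3 E16 arrays. miR-129-3p and miR-423-5p were so on 6 arrays, and miR-335-5p and miR-449a on 7, so their values on the other arrays are less certain. With so few arrays these correlations are descriptions, and an array that is bright or dim after scaling enters all of them. E16 replicate 4 was the lowest E16 array for both miR-99a (1.19) and miR-100 (-1.32), and it enters the r of 0.75 between them. How far that r rests on this array, or on signal shared between their near-identical probes, was not tested.

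The slides gave the same direction for each of the 3 miRNAs. Within slide 2 the log2 differences were 1.71 for miR-99a, 1.91 for miR-100 and 0.89 for miR-125b-5p. Within slide 3, with 2 E13 arrays and E16 replicate 4 alone, they were 1.14, 1.45 and 1.37, where the fit assumes that the lone array varies like the E13 arrays. miR-125b-5p was thus at its larger value where miR-99a and miR-100 were at their smaller one. With slide as a fixed block they were 1.48, 1.72 and 1.08.

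**Figure D5:**
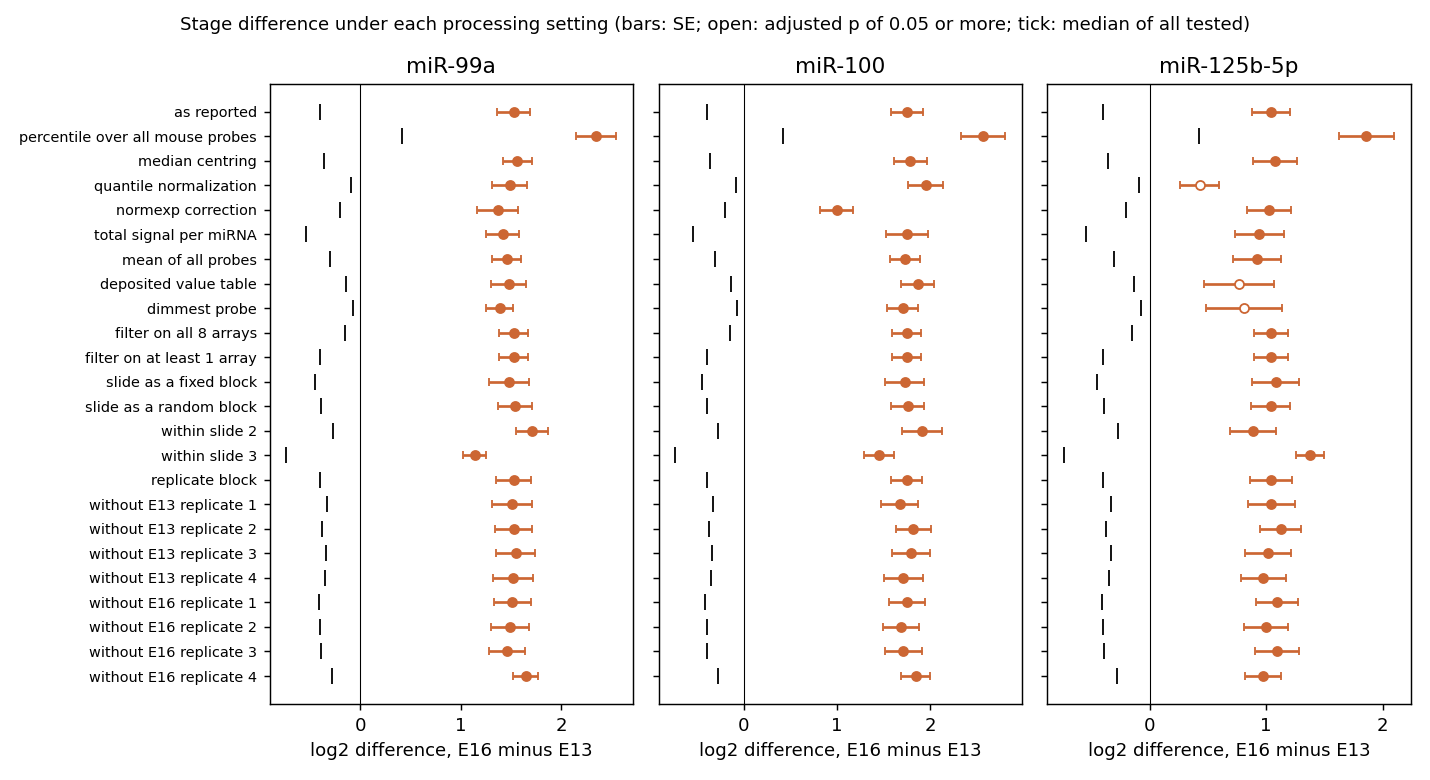
Log2 difference, E16 minus E13 (horizontal axis, with SE), under each processing setting, open where limma's adjusted p was 0.05 or more, with a tick at the median of all tested miRNAs. miR-99a and miR-100 are filled in each setting, of which within slide 3 has a single E16 array, and miR-125b-5p is open with quantile normalization (0.43), the deposited value table (0.76) and the dimmest probe (0.81).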

How the data were processed

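Per the labels, total RNA was extracted from the sorted cells, labelled with Cy3 and hybridised to one-colour arrays. The authors deposited 1 scanner file per array, made with Agilent Feature Extraction 10.7.3.1 per the file headers, in which the processed signal is a background-subtracted intensity that is not scaled between arrays. They also deposited a value table of 86 miRNAs on the log2 scale, used as an alternative. The sources used here do not name its software. Probe positions are in mm9, per the file headers.

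Control and outlier spots were left out, the outliers being 1.91% to 3.87% of an array's mouse probe spots, and 0 spots of mouse probes were saturated. Up to 10 spots of a probe were averaged. Each array was divided by its 75th percentile over 126 probes, floored at percentile 1 (log2 -5.96) and put on the log2 scale. A miRNA's brightest probe stood for it, and miRNAs whose brightest probe was well above background on at least 4 arrays were tested, where a probe counts as such from a share of 0.5 of its spots. limma 3.58.1 in R 4.3.3 (lmFit, eBayes, two-sided) was fitted over 153 miRNAs and p-values were adjusted by Benjamini-Hochberg, with 0.05 as the threshold. On simulated data the fits found 70.7% of log2 changes of 1 and 94.6% of those of 2, and 4.51% of the calls were false. The simulated arrays were independent of each other, so a shared litter is not covered. Intervals of within-array changes invert the exact permutation test. The number of arrays limits the precision.

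The members and lists (let-7 family, chromosome 17 cluster, markers) were chosen with earlier results of these data known. Named miRNAs are the members, carriers of their seeds, other arms of their hairpins, the let-7 family, and the 5 with the highest Pearson correlation per member. Alternatives changed the scaling, background correction (normexp with an offset of 50), filter, probe choice, slide, replicate block and the arrays included. Viral miRNA probes were not used.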

Additional observations from a re-analysis of the deposited data

Results flagged for a closer look

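In 5 of 50 groups of 4 arrays checked, 1 array lay far from the other 3 (by the gap to the nearest array over the group's range, against Dixon's critical value), where chance gives about 1 group in 20. let-7d on E16 replicate 3 had a scaled log2 signal of -0.48, with a gap over range of 0.96. let-7i on E13 replicate 1 was at -0.39, with 0.86. The log2 ratio of the shorter to the longer miR-125b-5p probe was -4.24 on E16 replicate 1, with 0.89. On the same array that ratio was -1.65 for miR-99b, with 0.92, and -3.21 for miR-125a-5p, with 0.83. These 2 relatives were added to the groups checked after their ratios were seen.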

How the results depend on the processing

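Of 22 alternatives with at least 2 arrays a stage, miR-99a and miR-100 kept direction and call in 22 and miR-125b-5p in 19, the exceptions being quantile normalization (0.43), the deposited value table (0.76) and the dimmest probe (0.81, added after seeing the data). The causes were not tested. Leaving out 1 array gave 1.46 to 1.65 for miR-99a, 1.67 to 1.84 for miR-100, 0.97 to 1.12 for miR-125b-5p, 1.87 to 2.24 for miR-99a minus miR-99b, 2.12 to 2.44 for miR-100 minus miR-99b, 1.5 to 1.71 for miR-125b-5p minus miR-125a-5p, 0.16 to 0.29 for miR-100 minus miR-99a, -0.26 to 0.15 for miR-99a minus let-7c and 0.78 to 1.0 for miR-100 minus let-7a. These within-array changes are then values with no test. Higher calls numbered 8 to 17 (17 without E16 replicate 4) and lower calls 22 to 54 (22 to 24 without E13 replicate 1, 2, 3 or 4). The number tested also changed, from 131 without E13 replicate 3 to 153 without E16 replicate 4.

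With normexp correction miR-99a minus miR-99b was 1.71, miR-100 minus miR-99b 1.34, miR-125b-5p minus miR-125a-5p 1.51, miR-100 minus let-7a 0.23 and miR-100 minus miR-99a -0.37, with 5 higher and 2 lower. Within slide 2 miR-99a minus miR-99b was 2.52, miR-100 minus miR-99b 2.72, miR-100 minus let-7a 1.34 and miR-99a minus let-7c 0.48, and within slide 3 they were 1.07, 1.38, 0.46 and -0.79, with 1.08 for miR-125b-5p minus miR-125a-5p. miR-99a minus let-7c was 0.22 in the deposited table and 0.30 with quantile normalization. miR-100 minus miR-99a passed with the dimmest probe (0.32) and the mean of all probes (0.27). Higher calls moved to 7 with the dimmest probe, 20 with quantile normalization and 47 with all mouse probes in the percentile. Lower calls moved to 11 in the deposited table, 20 with the dimmest probe, 10 and 68 with filters on all 8 arrays and on at least 1, 16 with the percentile over all mouse probes, 24 within slide 2 and 82 within slide 3.

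Same-numbered arrays did not deviate together (correlations -0.10, 0.07, 0.27 and -0.15). Such low values cannot show whether the numbers pair samples. With the replicate block the differences stayed 1.53, 1.75 and 1.04 with their calls, and 10 miRNAs were higher and 35 lower. Within-array changes were not run with slide as a random block.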
